A study of Mus musculus with 2 samples.

Results

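The genes described here are 10 transcripts that microglia are known to raise around damaged or degenerating neurons, the disease-associated microglia (DAM) genes: the receptors Trem2, Tyrobp and Axl, the lipid genes Apoe and Lpl, the secreted factors Spp1, Igf1 and Cst7, and the surface proteins Itgax and Gpnmb. They were taken as a named list, 10 of the 31053 genes counted, and not by a cut on their values. Earlier results of these data were known when the list was chosen. Each was read as raw unique molecular identifiers (UMIs, 1 per captured RNA molecule) in 4028 nuclei labelled Micro-PVM (microglia and perivascular macrophages), (1690 male and 2338 female), and in Astro (53 and 62), VLMC (vascular and leptomeningeal cells, 113 and 161) and neuron (1378 and 1202) nuclei. The nuclei came from Atf3-CreER::Sun1-sfGFP mice (Atf3-CreER:+/wt; SUN-SfGFP:+/wt) older than 7 weeks, which received a mild traumatic brain injury (mTBI) to the closed skull and tamoxifen at 4 and 5 days after injury. Ipsilateral cortex was taken at 7 days, and GFP+/DRAQ5+ nuclei, from cells that had Atf3 (and so Cre) on when tamoxifen was given, were sorted and barcoded. Cortices of 4 animals were pooled for each library, and there were 2 libraries, 1 from male and 1 from female mice. Every sample was injured and sorted on the same reporter, so nothing below compares injury with no injury, or reporter-positive with reporter-negative cells.

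TREM2 is a lipid-binding receptor of the microglial surface that signals through the adaptor TYROBP (DAP12) and the kinase SYK. APOE is a lipoprotein that TREM2 can bind, and in mouse models of neurodegeneration the full DAM programme is known to depend on Trem2 while genes of resting microglia, such as P2ry12 and Cx3cr1, fall. AXL takes up dying cells that the bridging protein GAS6 has coated, so several of these genes belong to the clearance of debris and lipid.

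The libraries differed in depth and sex together, and sex and depth cannot be told apart. The called barcodes held 11007313 UMIs (male) and 23202158 UMIs (female), and the median Micro-PVM nucleus held 1298.5 and 3012.5. GEO's sex and source fields give male for both libraries, but the Xist level was 3.33 against 1638 CPM (UMIs per 1000000 UMIs), and 4 Y-linked genes together gave 306 against 0.994 CPM, as the sample titles have it. Of 8258 called barcodes, 1 occurred in both libraries and 8171 had a label. Microglial markers summed to 6224 and 6344 CPM in Micro-PVM nuclei (male and female here and throughout) and to 497 and 888 CPM in neurons. Neuronal markers summed to 4291 and 2624 CPM in Micro-PVM nuclei and to 32691 and 32323 CPM in neurons, so each class held some RNA of the other.

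Motifs of factors bearing on this sort were an AP-1 site and a site of the myeloid factor PU.1 (GAGGAAGT). The AP-1 letters were TGANTCA (N is any base), a loose form of the site bound by the family to which ATF3 belongs. The promoters printed here hold such a motif, or are that of Gpnmb, whose level ranged widely over the clusters. They are up to 250 bases upstream of the RefSeq start site on GRCm38.p6, written 5′ to 3′ on the gene's strand, with any motif in capitals. Trem2 lies at chr17:48346151-48346400 (+), Itgax at chr7:128129300-128129546 (+), Spp1 at chr5:104434861-104435110 (+) and Gpnmb at chr6:49036268-49036517 (+). The Itgax window stops 3 bases short of its RefSeq start, where an annotated exon begins.
Trem2: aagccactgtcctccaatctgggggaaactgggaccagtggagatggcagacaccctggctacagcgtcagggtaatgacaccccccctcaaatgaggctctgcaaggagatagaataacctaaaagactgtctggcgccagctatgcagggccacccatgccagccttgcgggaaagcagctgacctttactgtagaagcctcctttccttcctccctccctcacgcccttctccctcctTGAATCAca
Itgax: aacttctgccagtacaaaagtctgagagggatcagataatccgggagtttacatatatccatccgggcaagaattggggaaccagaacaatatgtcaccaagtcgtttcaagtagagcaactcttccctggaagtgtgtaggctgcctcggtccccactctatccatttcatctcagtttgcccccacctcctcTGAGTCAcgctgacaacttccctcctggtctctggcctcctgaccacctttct
Spp1: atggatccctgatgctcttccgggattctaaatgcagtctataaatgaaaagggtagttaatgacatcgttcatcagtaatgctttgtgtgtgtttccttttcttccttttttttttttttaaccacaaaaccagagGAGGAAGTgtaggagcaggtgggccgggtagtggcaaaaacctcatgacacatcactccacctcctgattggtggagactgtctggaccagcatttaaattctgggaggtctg
Gpnmb: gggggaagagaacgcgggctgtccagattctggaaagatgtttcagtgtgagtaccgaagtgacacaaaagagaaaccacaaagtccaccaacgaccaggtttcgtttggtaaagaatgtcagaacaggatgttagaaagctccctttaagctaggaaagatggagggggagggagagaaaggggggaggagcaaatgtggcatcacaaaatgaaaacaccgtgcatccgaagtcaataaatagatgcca

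Read on both strands, an AP-1 match began 9 bases upstream of the Trem2 start (written -9), at -56 in Itgax (also counted from the RefSeq start, not from the end of the printed run) and at -37 in Igf1, whose window lies inside an annotated exon and is not printed. These were 3 of the 11 start-site entries of 8 members (Lpl and Tyrobp were not in the table), against 6.75% of 32851 promoters. Among these 11, PU.1 letters were found in 1 entry of Spp1, at -113, against 2.44% of promoters. The full cyclic AMP element (TGACGTCA, in 1.55% of promoters) and the E-box of the lysosomal MiT/TFE factors (TCACGTGA, in 0.785%) were in none of the 11. The Gpnmb window held none of the 4 motifs.

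On the annotation of the same build (GENCODE vM21), Apoe, Tyrobp, Axl and Itgax lie on chromosome 7, at chr7:19696109-19699188 (-), chr7:30413760-30417585 (+), chr7:25757273-25788705 (-) and chr7:128129547-128150657 (+). Trem2 spans chr17:48346401-48354147 (+), Lpl chr8:68880491-68907448 (+), Spp1 chr5:104435118-104441050 (+) and Gpnmb chr6:49036546-49070929 (+). Cst7 spans chr2:150570415-150578944 (+) and Igf1 chr10:87858265-87937042 (+). Igf1 overlaps its antisense gene Igf1os, which was counted too, so reads could be exchanged between them if strand was ignored. The counting covered unspliced RNA over whole gene bodies.

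Micro-PVM nuclei carried the members at levels far above neurons. Of the 9 members that passed the low-count filter (Spp1 did not), all 9 were higher in Micro-PVM nuclei than in neurons, with log2 differences from 3.21 for Igf1 to 5.36 for Cst7 and a median of 4.37. Across all 12954 genes tested the median was -0.0443, and 24.7% were called higher and 29.5% lower. The test was edgeR's quasi-likelihood test on 8 sums (4 classes in 2 libraries) with Benjamini-Hochberg adjustment, called at 0.05. Since sums of a library share its animals, the p-values measure the spread between 2 pools only. The labels came from mapping the RNA of these same nuclei onto a reference atlas, so comparisons of the 4 classes describe the labelled nuclei. They are no independent test that microglia hold these genes. When all nuclei with a neuron label were counted as neurons, the 9 were still called, with smaller differences, from 2.98 for Igf1 to 4.60 for Cst7 (Apoe 3.52, Trem2 3.60, Axl 4.05). The nuclei added in this way held microglial markers at 4334 and 5301 CPM.

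Among the receptors, Trem2 stood at 325 CPM [95% Poisson interval 303 to 348] and 152 [143 to 160] CPM in Micro-PVM nuclei (male and female), or 238 ± 123 (SD, n = 2). It was 15.5 and 4.87 CPM in neurons, 12.4 and 10.9 in Astro, and 10.3 and 4.97 in VLMC. Intervals of Micro-PVM and of the other classes did not overlap within either library. The log2 difference was 4.39 ± 0.44 (SE) against neurons (edgeR, Benjamini-Hochberg adjusted p = 5.10e-06), 4.40 ± 0.66 against Astro (adjusted p = 0.000260) and 5.25 ± 0.60 against VLMC (adjusted p = 2.12e-05). The difference against neurons was 5.26 without the male and 3.80 without the female neuron sum, called in both. Intervals here and below cover counting error only.

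Tyrobp, the adaptor of TREM2, stood at 69.0 and 45.9 CPM in Micro-PVM nuclei, and at no more than 6.19 CPM in any sum of the other 3 classes. Its difference against neurons was 4.58 ± 0.37 (edgeR, Benjamini-Hochberg adjusted p = 9.46e-07). Against Astro, where 1 UMI was found in both libraries together, the pooled ratio was 31.8 [5.69 to 1259].

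Axl was the member shared most evenly with other glia. It stood at 128 [114 to 143] and 97.4 [90.7 to 104] CPM in Micro-PVM, 80.4 [42.8 to 138] and 52.4 [33.6 to 78.0] in Astro, 59.6 and 51.7 in VLMC, and 3.43 and 2.26 in neurons. Micro-PVM and Astro intervals overlapped in the male library only. The log2 difference was 5.12 ± 0.27 against neurons, 1.21 ± 0.24 against VLMC (edgeR, Benjamini-Hochberg adjusted p = 0.00154) and 0.93 ± 0.27 against Astro (adjusted p = 0.0215). The Astro call was lost without either Micro-PVM sum, without the female Astro sum, without the female neuron sum and after subtraction of free RNA (adjusted p up to 0.205).

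Apoe and Lpl divided along the same line. Apoe, which astrocytes are known to make for lipid transport, stood at 693 [661 to 727] and 646 [629 to 664] CPM in Micro-PVM, 334 [251 to 436] and 236 [193 to 285] in Astro, 113 and 56.7 in VLMC and 36.1 and 23.6 in neurons. The order of the 4 classes was the same in both libraries, and no neighbouring intervals overlapped. Log2 differences of Micro-PVM were 4.31 ± 0.29 against neurons, 3.25 ± 0.30 against VLMC and 1.37 ± 0.28 against Astro (edgeR, Benjamini-Hochberg adjusted p = 0.00243). Within the libraries, with no test, the difference against VLMC was 2.86 and 3.85.

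Lpl, the lipase that frees fatty acids from lipoproteins, stood at 158 [143 to 174] and 97.9 [91.1 to 105] CPM in Micro-PVM. Neurons held 7.35 and 3.65 CPM, and Astro and VLMC together held 4 UMIs (1 and 3). Against Astro the pooled ratio was 69.5 [12.4 to 2746] and against VLMC 55.7 [19.0 to 271], and the difference against neurons was 4.37 ± 0.34 on the log2 scale (edgeR, Benjamini-Hochberg adjusted p = 8.16e-07).

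The secreted factors were of unequal depth. Spp1 (osteopontin, a ligand of integrins and CD44) gave 14 and 134 UMIs in Micro-PVM, 5.61 [3.07 to 9.42] and 16.7 [14.0 to 19.7] CPM. Neurons held 0 and 6 UMIs of Spp1, VLMC 1 and 4, and Astro 0, so the pooled fold over Astro was at least 2.90 (against a floor of 3 counts over both libraries). Spp1 was left out of the fit by the filter and has no test. Cst7 (cystatin F, an inhibitor of lysosomal cysteine proteases) gave 18 and 53 UMIs in Micro-PVM, 7.22 and 6.59 CPM, and 1 UMI in each neuron sum, a pooled ratio of 59.4 [15.8 to 499.7]. Within the libraries, with no test and with 0.5 CPM added to each level, the log2 difference of Cst7 from neurons was 3.52 and 3.67. The mean Cst7 level of neurons was 0.125 CPM, so the addition shrank this difference. Astro and VLMC held 0 UMIs of Cst7, which makes the pooled Micro-PVM level at least 1.39-fold higher than Astro and at least 3.35-fold higher than VLMC. Its edgeR call against Astro missed the threshold (Benjamini-Hochberg adjusted p = 0.0518), and that against VLMC was lost without the female VLMC sum (adjusted p = 0.0543).

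Igf1, a growth factor for neurons and oligodendrocytes, stood at 130 [116 to 145] and 310 [298 to 322] CPM in Micro-PVM, 22.0 and 21.1 in neurons, 8.22 and 24.9 in VLMC, and 0 and 2.18 (1 UMI) in Astro. Its difference was 3.21 ± 0.44 against neurons (edgeR, Benjamini-Hochberg adjusted p = 5.99e-05), 3.79 ± 0.54 against VLMC and, as a pooled ratio, 166 [29.7 to 6540] against Astro. Without the male or the female Micro-PVM sum, the difference was 3.84 or 2.26 against neurons and 4.47 or 2.86 against VLMC, and without the female VLMC sum it was 5.25 against VLMC, called in each case.

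Of the surface proteins, Itgax (CD11c, an integrin subunit) stood at 16.8 [12.1 to 22.8] and 16.4 [13.7 to 19.5] CPM in Micro-PVM. Neurons held 0.817 and 0.609 CPM of Itgax, Astro 1 UMI in each library and VLMC 0, so the pooled fold was at least 8.21 over VLMC. Against Astro its pooled ratio was 5.12 [1.40 to 42.6]. Its call against Astro (log2 difference 2.40 ± 0.77, edgeR, Benjamini-Hochberg adjusted p = 0.0332) was lost with DESeq2 (adjusted p = 0.106) and in 6 of the 8 fits that left out 1 sum, among them those without either Astro sum (adjusted p up to 0.338). Gpnmb, a glycoprotein of lysosomes and the cell surface, stood at 81.0 [70.2 to 93.0] and 406 [393 to 421] CPM in Micro-PVM, 19.6 and 20.7 in neurons, 0 and 21.8 in Astro and 2.05 and 7.96 in VLMC. Its difference against neurons was 3.48 ± 0.64 (edgeR, Benjamini-Hochberg adjusted p = 0.000616), 4.32 without the male and 1.67 without the female Micro-PVM sum (called in both), and the call against Astro was lost without the male or the female Astro sum (adjusted p = 0.0555 and 0.0561).

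Over both glial comparisons, 8 of 9 members were called higher against Astro (16.9% of all genes were called higher there and 15.7% lower), and 9 of 9 against VLMC (19% and 21.7%). The member medians were 4.40 and 5.25, against 0.22 and 0.06 for all genes.

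**Figure D1:**
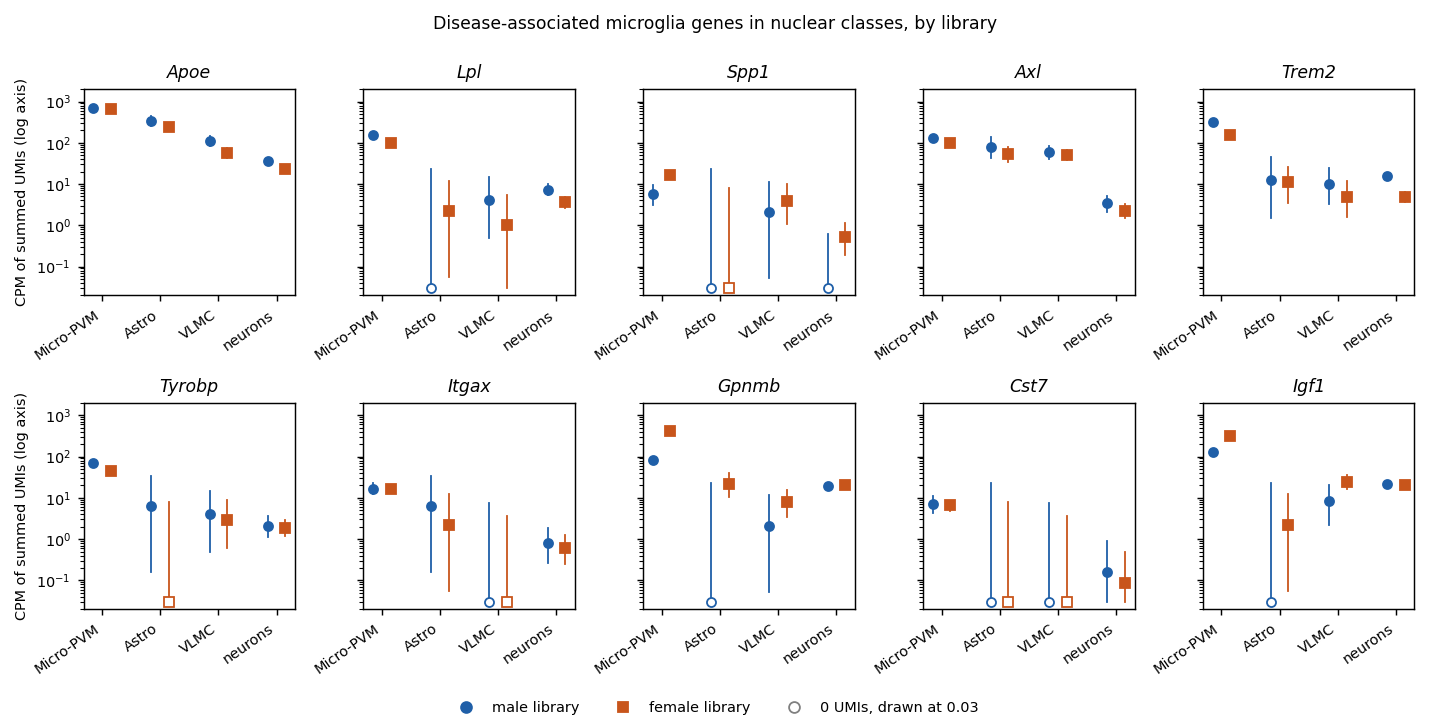
CPM of each member (log axis) in the sums of Micro-PVM, Astro, VLMC and neuron nuclei, with the male library as blue circles and the female library as orange squares; bars are 95% Poisson intervals and open symbols are sums with 0 UMIs, drawn at 0.03. Apoe and Axl step down gently from Micro-PVM to Astro, while Lpl, Cst7 and Igf1 fall to a few UMIs or 0 in Astro.

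As shares of nuclei, Apoe had at least 1 UMI in 44.4% and 59.9% of Micro-PVM nuclei against 13.3% and 17.3% of neurons, whose median depth was higher (3591 and 8501.5 UMIs). When each nucleus was thinned to 1000 UMIs (leaving out 453 male and 16 female Micro-PVM nuclei with fewer), the Micro-PVM share was 38.1% and 34.3% and the neuron share 4.12% and 2.86%. Thinned shares of Trem2 were 25.8% and 14.9%, of Igf1 8.73% and 18.3%, and of Gpnmb 4.2% and 14.6% in Micro-PVM. In thinned neurons Trem2 was found in 1.68% and 0.780%, Igf1 in 2.60% and 1.82% and Gpnmb in 2.44% and 2.69%. Cst7, Itgax and Spp1 were in under 5% of Micro-PVM nuclei before thinning, in both libraries.

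Genes that act with the members were counted in the same fits, beside the 24.7%, 16.9% and 19% of all genes called higher against neurons, Astro and VLMC. In TREM2 signalling (SYK, PLCγ2, SHIP1 and their neighbours), 9 of 9 tested genes were higher in Micro-PVM than in neurons, from Grb2 (2.05 ± 0.22), an adaptor of many receptors, to Pik3ap1 (6.09 ± 0.34), an adaptor for PI3 kinase. The same 9 of 9 were higher against Astro and against VLMC. Inpp5d, which encodes the SHIP1 phosphatase, was the most abundant of them, at 1519 and 1500 CPM. Among 30 other DAM genes, 25 of 27 tested were higher against neurons and 1, Pld3, a lysosomal exonuclease, was lower (-1.13 ± 0.27). Against Astro 17 of 27, and against VLMC 26 of 27, were higher and 0 lower. Tlr2, a receptor for microbial lipids, led against neurons at 5.65 ± 0.53. Clec7a is not analysed here.

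Lipid handling was more mixed. Against neurons, 11 of 15 genes were higher, led by the lipid droplet protein Plin2 (4.99 ± 0.53) and the scavenger receptor Cd36 (4.93 ± 0.82), and 1, the nuclear receptor Pparg, was lower (-2.09 ± 0.36). Against Astro 6 of 15 were higher, led by the sterol exporter Abcg1 (5.51 ± 0.40), and Acat1, a mitochondrial thiolase, was lower (-0.90 ± 0.32). Against VLMC, 11 of 15 were higher and 2 lower, among them Acat1 (-1.08 ± 0.27).

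Binding partners of the members were placed on both sides. Mertk, the kinase that shares GAS6 with AXL, was the most abundant partner in Micro-PVM nuclei (1776 and 1897 CPM) and led the partners against neurons (5.81 ± 0.29). Gas6 itself and Cd44, a receptor of osteopontin, were lower than in neurons (-1.23 ± 0.29 and -1.59 ± 0.24). In all 7 of 13 partners were higher and 2 lower against neurons, 8 and 1 against Astro, and 10 and 2 against VLMC. Igfbp5, which binds IGF1, was lower than in Astro (-5.24 ± 0.52) and VLMC (-4.10 ± 0.50). Igf1r, the IGF1 receptor gene, was lower than in VLMC (-0.83 ± 0.21). Gpihbp1, which anchors LPL on endothelium, had 0 UMIs in Micro-PVM nuclei. All adjusted p-values of the list genes named were under 0.05 by edgeR's quasi-likelihood test, over all genes.

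Genes of resting microglia were present beside the DAM genes. Of 14 homeostatic genes, 14 were higher in Micro-PVM than in neurons (median 5.14), 12 than in Astro and 14 than in VLMC. The pools hold no uninjured microglia, so whether any of these levels moved with injury was not measured.

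The members were then followed over the 7 deposited clusters that held at least 100 Micro-PVM nuclei each (3954 of the 4028). Because the clusters were drawn from the RNA of these same nuclei, these levels describe the clusters and are no test of them. Cluster 0 (648 and 716 nuclei) and cluster 5 (486 nuclei) were at the low end for most members. Gpnmb stood at 5.76 and 13.8 CPM in cluster 0 and 4.15 and 22.2 in cluster 5. Igf1 stood at 34.6 and 44.4 in cluster 0 and 20.8 and 40.8 in cluster 5. Spp1 gave 4 UMIs in both clusters and libraries together.

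Cluster 13 (27 and 110 nuclei) was highest for Apoe, Gpnmb, Spp1 and Igf1. Apoe stood there at 2370 [2015 to 2770] and 1543 [1444 to 1647] CPM, Gpnmb at 1125 [885 to 1410] and 1726 [1621 to 1836], Spp1 at 75.0 [24.4 to 175] and 61.4 [43.0 to 85.0], and Igf1 at 435 [291 to 625] and 590 [530 to 656]. Cst7 had 0 UMIs in cluster 13, which allows up to 6.29 CPM in the female library. Markers of perivascular macrophages summed to 885 and 1642 CPM in this cluster (F13a1 405 and 895, Ms4a7 285 and 368, Mrc1 195 and 343), and to 28.4 and 82.6 CPM in all other Micro-PVM nuclei. Of the markers that define these macrophages, Lyve1 had 0 UMIs and Pf4 stood at 0 and 3.41 CPM and Cd163 at 0 and 27.3. The monocyte receptor Ccr2 stood at 135 and 17.1 CPM. Homeostatic genes summed to 2010 and 2456 CPM there, against 5927 and 5825 in cluster 0. Left out of the Micro-PVM sums, cluster 13 took Apoe to 647 and 576 CPM, Gpnmb to 52.3 and 303, and Spp1 to 3.71 and 13.1.

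Cluster 1 (386 and 672 nuclei) came second for Apoe, Gpnmb and Igf1. Gpnmb stood at 154 [126 to 185] and 660 [631 to 690] CPM, Igf1 at 267 and 553 and Apoe at 976 and 859. Its female Igf1 interval overlapped that of cluster 13. In the female library, 64.1% of its nuclei had an Igf1 UMI and 336 of 672 a Gpnmb UMI, against 26.9% and 13.5% in the male library, and after thinning 36.8% and 29.0% against 17.4% and 9.27%.

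Cluster 9 (108 and 134 nuclei) was highest for Lpl, at 857 [711 to 1024] and 514 [444 to 590] CPM against no more than 201 CPM in any other cluster of either library. Lpl UMIs were in 42.6% and 47.0% of its nuclei. Itgax was also highest there, at 35.4 [11.5 to 82.7] and 57.3 [35.9 to 86.8] CPM, from 5 and 22 UMIs. Gpnmb was low in these nuclei (14.2 and 75.6 CPM), so Lpl and Gpnmb, both DAM genes, peaked in different clusters. The 14 female Spp1 UMIs of cluster 9 all came from 1 nucleus.

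Cluster 10 (119 and 123 nuclei) was high for Axl, at 233 [171 to 309] and 272 [228 to 322] CPM, though cluster 13 reached 270 [160 to 427] in the male library. Cst7 was highest there by its mean, at 14.9 and 14.1 CPM, but from 3 and 7 UMIs, and its intervals overlapped those of clusters 1 and 9. Trem2 and Tyrobp were spread evenly by comparison. Trem2 ranged from 150 to 405 CPM over the male and from 98.9 to 169 over the female clusters, lowest in cluster 13 in both. Tyrobp ranged from 56.2 to 128 and from 29.3 to 60.2 CPM, and its highest cluster was 9 for male and 2 for female nuclei.

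**Figure D2:**
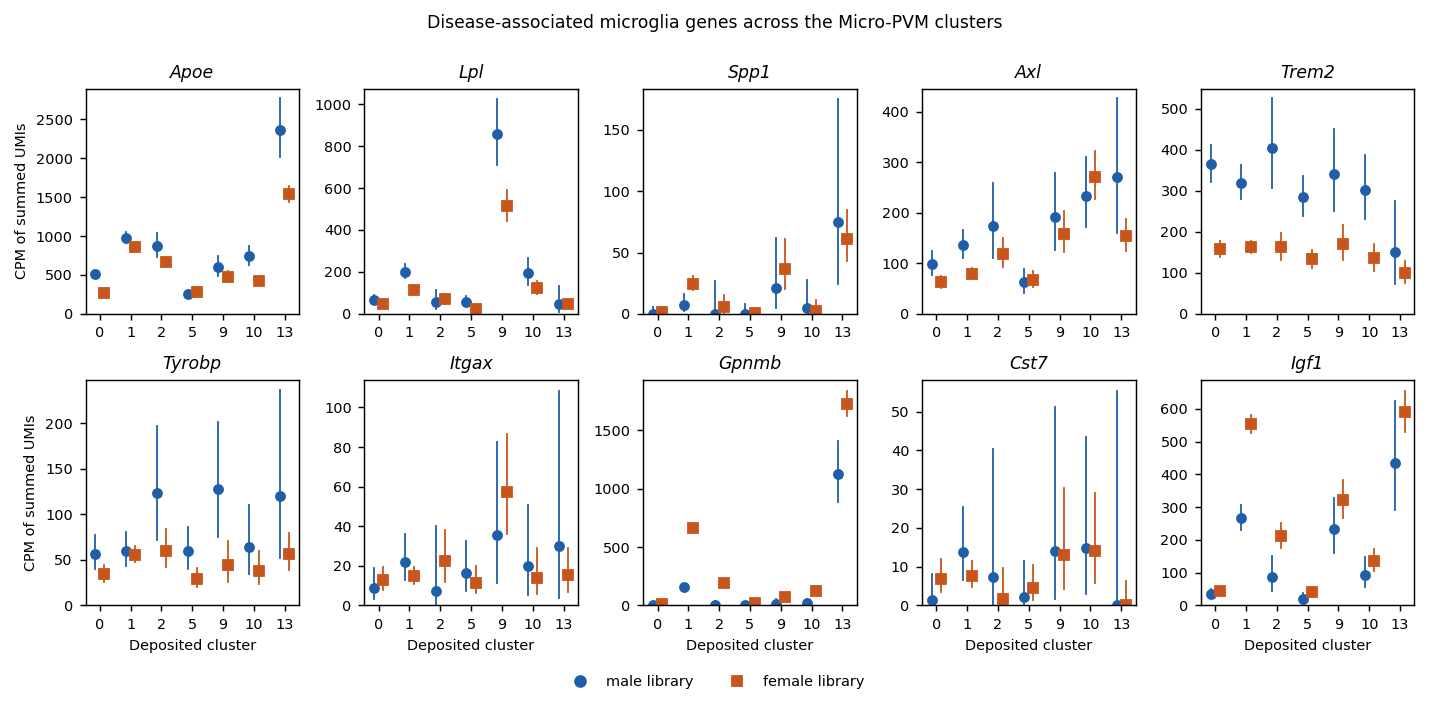
CPM of each member (linear axes, each with its own scale) in the Micro-PVM nuclei of the 7 deposited clusters, male library as blue circles and female library as orange squares, with 95% Poisson intervals. Gpnmb, Apoe and Spp1 peak in cluster 13, Lpl in cluster 9 and Axl in clusters 10 and 13, while Trem2 is higher in the male library in every cluster.

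The members were also counted per nucleus. After thinning to 1000 UMIs, the mean Micro-PVM nucleus showed 1.09 and 1.05 of the 10 members, and 3 or more were seen in 9.22% and 9.69% of nuclei. That share was 30.8% and 33.6% in cluster 13, 14.3% and 18.2% in cluster 1, 18.9% and 9.77% in cluster 9, and 4.14% and 1.82% in cluster 0. It was 0% and 0.621% in VLMC and 0% in Astro and neurons. In the female library, 144 of the 338 thinned nuclei with a Gpnmb UMI also had an Igf1 UMI, and 426 of all 2322 thinned nuclei had one. In the male library, the corresponding numbers were 12 of 52, with 108 of 1237.

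Across the 14 sums of cluster and library, the genes whose log CPM ran closest to the sum of 8 members (all but Apoe and Tyrobp) were Atp6v1a, a subunit of the lysosomal proton pump (Pearson r = 0.960), Osbpl8 (0.956), Rbm47 (0.9496), the cathepsin Ctsb (0.945) and Dusp3 (0.937), among 5805 genes compared. Lgals3, galectin-3, was second closest to Igf1 (r = 0.976), after the noncoding RNA Airn (0.9796). Galc, a lysosomal enzyme of myelin lipid breakdown, was second closest to Apoe (0.948). These correlations are descriptive, since the sums share libraries and clusters. Among the members, Igf1 and Spp1 had r = 0.900 and Gpnmb and Spp1 0.804, while Lpl and Apoe had 0.0363 and Gpnmb and Trem2 -0.678. The last value includes the difference between libraries, since Gpnmb was higher and Trem2 lower in the female library in 7 of 7 clusters.

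The members differed between the male and female libraries in both directions. Gpnmb was 5.02-fold higher in female Micro-PVM nuclei (log2 2.32, rank 5 of 6747 genes) and Igf1 2.38-fold higher (1.25, rank 30), each in 7 of 7 clusters. Trem2 was lower in the female library (-1.10) in 7 of 7 clusters. Its female level was 0.466 of the male in Micro-PVM, 0.314 in neurons, 0.484 in VLMC and 0.882 in Astro. Free RNA moved the same way for Gpnmb (29.0 and 140 CPM), Igf1 (43.5 and 109) and Trem2 (209 and 104). Of all genes compared, 0.786% were at least 2-fold higher and 3.99% at least 2-fold lower in the female library, with a median of -0.17. With 1 library of each sex there is no replicate of this difference and no test. Sex, depth and pool cannot be told apart. The genes ahead of Gpnmb included Xist and Tsix, and the next was F13a1 (13.2 and 66.6 CPM), a macrophage marker. Without cluster 13, Gpnmb stood at 52.3 and 303 CPM (log2 2.52), Igf1 at 1.24 and Trem2 at -1.08 on the log2 scale.

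In neurons, 2 members, Igf1 and Gpnmb, were called between neuron groups. Igf1 was higher in inhibitory than in excitatory neurons, at 71.3 [59.0 to 85.4] and 48.5 [41.7 to 56.1] CPM against 4.02 [2.38 to 6.35] and 7.75 [5.91 to 9.97]. By subclass it was 462 and 356 CPM in Vip interneurons, 366 and 220 in Lamp5, 40.2 and 20.9 in Sst, and 0 and 7.23 in Pvalb, and at most 17.1 in any excitatory subclass. Of Vip nuclei (34 and 27), 70.6% and 70.4% had an Igf1 UMI. The 4 and 7 Sncg nuclei gave 216 and 617 CPM and did not enter the fit. Vip and Lamp5 intervals lay above those of every fitted excitatory subclass in both libraries. The male Vip and Lamp5 intervals lay above that of Micro-PVM nuclei, and the female ones (274 to 454 and 144 to 323 CPM) overlapped it.

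Over 10 subclasses in 2 libraries, Igf1 was 3.40 ± 0.36 higher in inhibitory neurons on the log2 scale (edgeR, Benjamini-Hochberg adjusted p = 7.11e-08), where 9.49% of 8255 genes were called higher and 12.3% lower. Without the female L5 IT, L6 CT or L6 IT sum the difference was 4.15, 4.27 or 4.43 and still called. The call was lost when the female Pvalb sum was left out (edgeR adjusted p = 0.999918) and after subtraction of free RNA (0.999988). In both of these fits the Pvalb sums stood at 0 UMIs of Igf1. After subtraction, all excitatory sums and the female Sst sum stood at 0 too, since the estimate of free RNA exceeded their Igf1. The fitted difference was 2.08 in the first fit and 7.04 in the second. Igf1 per Apoe UMI was 10.6 and 13.8 in Vip, Lamp5 and Sncg nuclei together, 0.0989 and 0.319 in excitatory neurons, and 0.0808 and 0.251 in free RNA (barcodes with 1 to 100 UMIs that were not called as nuclei).

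Gpnmb stood at 39.0 [30.5 to 49.1] and 34.5 [27.6 to 42.7] CPM in neurons of layers 2/3 (L2/3 IT, 437 and 329 nuclei) and at 13.5 [8.44 to 20.4] and 15.04 [11.2 to 19.7] in the layer 5 neurons that project out of the cortex (L5 PT, 352 and 290 nuclei). The intervals did not overlap in either library. L6 IT neurons stood near L2/3 IT, at a mean of 30.9 ± 1.09 CPM (SD, n = 2). The other fitted subclasses had means of no more than 20.8 CPM (Pvalb). The log2 difference of L5 PT from L2/3 IT was -1.30 ± 0.40 (edgeR, Benjamini-Hochberg adjusted p = 0.0327), where 5.94% of 8255 genes were called higher and 6.42% lower in L5 PT. The call was lost when any 1 of the 4 sums was left out (adjusted p from 0.110 to 0.173) and with DESeq2 (adjusted p = 0.0953).

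Apoe, Trem2 and Igf1, the other members that passed the filter in neurons, were not called between these layers, with log2 differences of -0.19 ± 0.31, 0.01 ± 0.73 and 0.11 ± 0.56. Between inhibitory and excitatory neurons, Apoe (-0.22 ± 0.28), Trem2 (-0.83 ± 0.75) and Gpnmb (-0.37 ± 0.59) were not called either. The remaining 6 members were too sparse in neurons to be tested. In both comparisons, then, 1 of 4 tested members was called, Gpnmb lower in L5 PT and Igf1 higher in inhibitory neurons. Of all genes, 5.94% were called higher and 6.42% lower in L5 PT, and 9.49% higher and 12.3% lower in inhibitory neurons. The member counts were not tested against these shares.

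**Figure D3:**
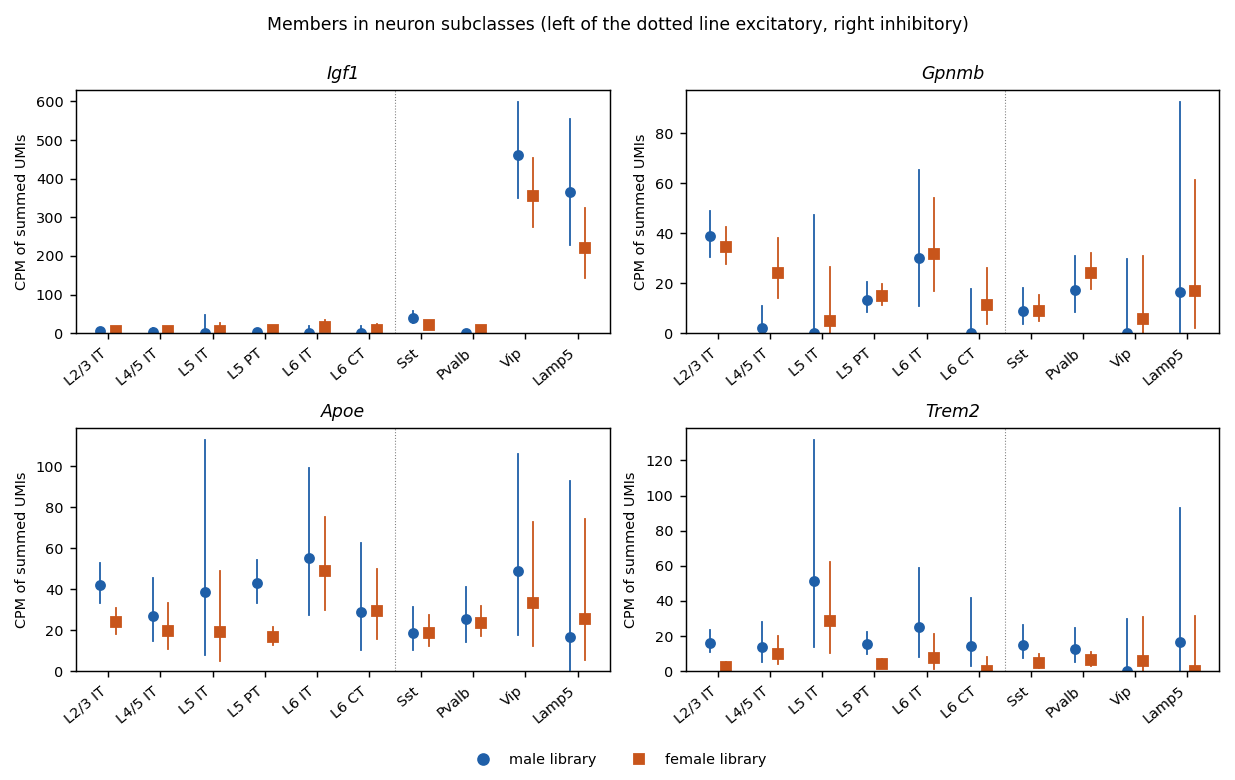
CPM of Igf1, Gpnmb, Apoe and Trem2 in the neuron subclasses that entered the fit (linear axes, each with its own scale), male library as blue circles and female library as orange squares, with 95% Poisson intervals. Igf1 stands out in Vip and Lamp5 interneurons in both libraries. Gpnmb is higher in L2/3 IT than in L5 PT, with L6 IT near L2/3 IT. No subclass has Apoe or Trem2 intervals apart from all the others in both libraries.

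The ratio between members was compared with that in free RNA. Apoe stood at 538 and 434 CPM in free RNA, Trem2 at 209 and 104, Gpnmb at 29.0 and 140 and Igf1 at 43.5 and 109. Trem2 per Apoe UMI was 0.430 and 0.207 in neurons, 0.388 and 0.241 in free RNA and 0.469 and 0.235 in Micro-PVM, so within each library the 3 sources held them in similar ratios, and the part of free RNA in the neuron UMIs of these members was not tested. Gpnmb per Apoe UMI was 0.923 and 1.44 in L2/3 IT, 0.314 and 0.897 in L5 PT, and 0.0538 and 0.323 in free RNA. In Micro-PVM nuclei it was 0.117 and 0.629 and in neurons as a whole 0.543 and 0.878, also above free RNA in both libraries. An estimate of free RNA was then subtracted from each sum, and counts below 0 were set to 0. In neurons it was 25.1% and 31.8% of UMIs. This estimate held more Apoe and Trem2 than neurons did in both libraries, and more Gpnmb and Igf1 in the female library. The Apoe difference from neurons became 13.8. Gpnmb no longer passed the filter in neurons. Calls of Gpnmb and Igf1 in Micro-PVM against neurons were lost (edgeR, Benjamini-Hochberg adjusted p = 0.0760 and 0.0588). The log2 differences were larger than before (4.99 and 4.98). Sums set to 0 enter these fits, so the lost calls do not show how much of the neuron RNA was free RNA. Subtraction also ended the calls of Igf1, Axl, Itgax and Gpnmb against Astro (adjusted p from 0.0723 to 0.128) and of Igf1 and Gpnmb against VLMC (0.0512 and 0.0635). The differences from Astro were then 0.99 for Axl and 2.28 for Itgax, and those of Igf1 and Gpnmb from Astro and VLMC were larger than before.

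Some genes that act with the members were also called between neuron groups, among them Cd44, the osteopontin receptor. Cd44 stood at 413 and 311 CPM in L5 PT and 137 and 119 in L2/3 IT (1.51 ± 0.19, edgeR, Benjamini-Hochberg adjusted p = 3.52e-06). Syk, the kinase that TREM2 signals through in microglia, stood at 91.9 and 87.9 CPM in L5 PT, 43.9 and 33.7 in L2/3 IT, and 0 in Vip and Lamp5 (1.25 ± 0.23 for L5 PT against L2/3 IT, adjusted p = 0.000450). Pros1, a ligand of AXL and MERTK, was likewise higher in L5 PT (41.0 and 32.4 against 17.9 and 15.4 CPM, 1.15 ± 0.29).

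In the other direction, Lgals3, galectin-3, stood at 45.5 and 37.4 CPM in L2/3 IT and at 2.45 and 6.65 in L5 PT (-2.94 ± 0.45, edgeR, Benjamini-Hochberg adjusted p = 5.37e-05). Its L2/3 IT levels did not overlap those of L5 PT. The fatty acid sensor Pparg stood at 214 and 173 CPM in L2/3 IT and 42.9 and 30.7 in L5 PT (-2.39 ± 0.19, adjusted p = 9.43e-09), and the sterol exporter Abca1 at 205 and 198 against 90.0 and 102 (-1.03 ± 0.21). Timp2, an inhibitor of metalloproteases, was lower in L5 PT too (-1.21 ± 0.34).

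By list, and beside the 5.94% of all genes called higher and 6.42% called lower, 2 of 12 other DAM genes and 2 of 10 lipid genes were called between L5 PT and L2/3 IT, all lower in L5 PT, and 2 of 10 partners, both higher. Of 4 TREM2 signalling genes, Syk was called. Between inhibitory and excitatory neurons, Igf1r, the receptor of IGF1, was lower in the inhibitory neurons (-1.03 ± 0.11, adjusted p = 1.16e-07), at 170 and 156 CPM in Vip against 306 and 254 in L2/3 IT. Itgav, an integrin subunit that binds osteopontin, was lower as well (-2.83 ± 0.62), with 0 UMIs in Lamp5 and 0 and 3 in Vip. The lists gave 1 higher and 1 lower of 12 other DAM genes, 1 and 1 of 10 lipid genes, 0 and 3 of 10 partners, and 0 and 1 of 4 TREM2 signalling genes in that comparison, beside 9.49% and 12.3% of all genes. These counts are of 3 genes or fewer a list and were not tested against that share.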

How the data were processed

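Single-nucleus libraries (10x 3′ v3, 1 male and 1 female pool) were processed by the authors with Cell Ranger against a GRCm38 pre-mRNA reference (mm10 per the labels). The file headers name version 7.0.1 (male filtered matrix), 7.0.0 (female) and 4 (both raw matrices, the source of free RNA), and the submitters' processing notes 3.1.0. The deposited filtered and raw matrices hold raw UMI counts per gene and barcode, and were used as deposited. The authors' table of nuclei, made in Seurat, gave the library, cluster, labels, UMI counts and the percent of mitochondrial UMIs, on which the authors' stated limits (6000 genes, 5%) were tried as an alternative, since 104 labelled nuclei exceeded them. Its UMI totals equalled the matrix sums in 7960 of 8171 nuclei and differed by at most 4 in the others. A table of values from SCTransform was not used. Doublets: none were marked in the files, and no caller was run.

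Nuclei in the neuron subset were counted as neurons, 34 with a Micro-PVM label included. No alternative left these 34 out, so their part in the neuron levels was not tested. CPM is the summed UMIs of a gene per 1000000 UMIs of those nuclei, with exact Poisson intervals (95%), and shares were also taken after thinning each nucleus to 1000 UMIs. Sums per class (8) or subclass (20, at least 20 nuclei over both libraries) and library were fitted with edgeR 4.0.16 in R 4.3.3 (TMM, filterByExpr, quasi-likelihood test, Benjamini-Hochberg adjusted p at 0.05, over all genes) and checked on simulated counts. Folds where a sum held 0 to 3 UMIs are pooled ratios, with a floor of 3 counts. Log2 differences within 1 library, or between the 2 libraries, had 0.5 CPM added to each level. Free RNA was taken from uncalled barcodes with 1 to 100 UMIs. For subtraction it was scaled in each sum by the markers of other classes, and counts below 0 were set to 0. Alternatives were DESeq2 1.42.0, no filter, the stated limits, free RNA subtracted, sums left out, other sets of nuclei and the library as a block. The libraries are the same animals in each class, so they pair the sums, and the deviations of classes within a library had a median correlation of 0.189 (lowest 0.083, 6 pairs) and those of subclasses 0.143 (45 pairs). The members and gene lists were chosen with earlier results of these data known. Named from the lists were genes with the 2 highest or lowest called differences in a comparison, or the most or least abundant in Micro-PVM nuclei, and values of 2 such genes are not reported here.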

Additional observations from a re-analysis of the deposited data

Results flagged for a closer look

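Nuclei that carried a neuron label but lay outside the neuron subset entered no comparison above other than the alternative that counted every neuron label, and they held members at levels near those of Micro-PVM nuclei. Apoe stood at 792 and 633 CPM there (male and female), Trem2 at 284 and 143, and Gpnmb at 148 and 259. In these nuclei (421 and 152) Trem2 per Apoe UMI was 0.359 and 0.226. They were shallow, at a median of 681 and 911.5 UMIs. Microglial markers summed to 4334 and 5301 CPM in them, against 6224 and 6344 in Micro-PVM nuclei. Neuronal markers summed to 7469 and 5538 CPM, against 32691 and 32323 in the neuron subset. Nuclei labelled Unknown (225 and 170), also outside the comparisons, held Gpnmb at 38.3 [26.8 to 53.0] and 71.3 [58.7 to 85.7] CPM, with Apoe at only 31.9 and 14.5. These levels were picked up because they exceeded those of the neuron subset in nuclei that the reported fits leave out.

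Within neurons, members that were not called moved in opposite directions in the libraries, and the differences between libraries were not tested. Between inhibitory and excitatory neurons, the log2 difference of Apoe was -0.564 (male) and 0.0523 (female), and that of Gpnmb 0.419 and -0.423. Between L5 PT and L2/3 IT, that of Apoe was 0.0714 and -0.400, of Igf1 -0.122 and 0.214, and of Trem2 -0.0337 and 0.727.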

How the results depend on the processing

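Of 93 alternative counts of called genes, 87 were within 1.5 times the reported count, and of 636 alternative log2 differences of members, 589 kept their direction and their side of the threshold, 29 were no longer called, 4 became called and 14 changed sign. Micro-PVM against Astro had 4222 called genes, and 2400 without the female Astro sum (2400 to 4566 over sums left out). The count of L5 PT against L2/3 IT was 1020. It was 1772 with the library as a replicate block, 385 with free RNA subtracted, and 594 to 1146 over sums left out (599 and 607 without the male or female L2/3 IT sum, 594 without the female L5 PT sum). Ranges over sums left out were 5013 to 8093 against neurons (7023 reported), 4200 to 5643 against VLMC (5274) and 1364 to 1782 for inhibitory against excitatory (1798). With the block the counts were 8010 against neurons, 4609 against Astro, 5909 against VLMC and 1968 for inhibitory neurons. A whole library left out gave differences of the other library alone, with no test.

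Signs changed only for members that were not called in neurons. For inhibitory against excitatory, Apoe ran from -0.564 to 0.0523 over settings that left out a sum or a library (positive without replicate 1), and Gpnmb from -1.53 to 0.559 (0.0990, 0.387 and 0.559 without the female L4/5 IT, L5 IT or L6 CT sum, 0.419 without replicate 2). For L5 PT against L2/3 IT, Apoe ran from -0.825 to 0.337 (positive at 0.171, 0.337 and 0.0714), Igf1 from -0.539 to 0.489 (negative at -0.144, -0.539 and -0.122) and Trem2 from -0.961 to 1.73 (negative at -0.796, -0.961 and -0.0337). The cause was not tested.

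The highest cluster of a member was kept in 43 of 50 alternatives. Mean member levels in Micro-PVM moved by more than 1 SD in 10 of 60, 7 of them in nuclei with no neuron marker UMI (only 12 and 4 nuclei), and shares of nuclei in 8 of 20, all by thinning. Spp1, Cst7 and Itgax rest on few UMIs, and Astro sums on 53 and 62 nuclei, so that a level under about 23 CPM could be missed in the male Astro sum.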
